A study of Mus musculus with 28 samples.

Results

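The genes described are the pore-forming and auxiliary subunits of voltage-gated sodium channels (*Scn*), voltage-gated calcium channels (*Cacna*, *Cacnb* and *Cacng*) and hyperpolarization-activated cyclic nucleotide-gated channels (*Hcn*). They were chosen by symbol in the GENCODE M21 annotation, without antisense genes, and needed a mean of 10 or more counts over all mice. Of 44 genes with such a symbol in both count tables, 41 passed, among 16266 genes tested in all. *Cacna1f*, *Cacng1* and *Scn4a* fell below the minimum, with means of 5, 4.21 and 0.89 counts, and the lowest genes kept were *Cacna1s* with 16.2 and *Cacng6* with 16.6. By channel type the 41 comprised 9 sodium channel alpha subunits, 4 sodium channel beta subunits, 3 Cav1, 3 Cav2 and 3 Cav3 pore subunits, 4 alpha2delta subunits, 4 calcium channel beta subunits, 7 gamma subunits and 4 HCN channels.

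RNA was sequenced, after mRNA enrichment and removal of ribosomal RNA, from amygdala micropunches of 28 adult female C57BL6/J mice, which were housed singly and formed 2 separate batches of animals. Water mice (4 of the first and 6 of the second batch) never had alcohol, Acute mice (4 and 5) had 20% alcohol beside water on a single occasion, and Chronic mice (3 and 6) had it every other day for a month. No mouse carried a transgene or a second treatment, each library came from 1 mouse, and the punches covered the central and basolateral nuclei and whatever tissue bordered them. Library totals ran from 20393352 to 22569562 counts (first batch) and from 20004380 to 20890964 counts (second batch).

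Sodium channel alpha subunits open on depolarization and carry the upstroke of the action potential, while their beta subunits set gating and placement in the membrane. Cav1 (L-type) channels couple activity to calcium signalling in the cell body and dendrites, Cav2 (P/Q-, N- and R-type) channels trigger transmitter release, and low-voltage-activated Cav3 (T-type) channels support burst firing. The calcium channel beta and alpha2delta subunits bring the pore to the membrane, several gamma subunits serve AMPA receptors as auxiliary proteins, and HCN channels pass an inward cation current on hyperpolarization.

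*Hcn2* and *Hcn3* were the genes with an unadjusted p under 0.05 in both comparisons with Water beside *Cacna1d*, and they are rich in G and C, a property that moved with the differences between groups described later. Shown for these and *Hcn4* is the stretch of 90 coding bases around the selectivity filter in exon 4, read from GENCODE M21 on GRCm38 in the direction of transcription. Capitals mark the codons of the glycine-tyrosine-glycine signature.
Hcn2 (chr10:79728914-79729003, plus strand): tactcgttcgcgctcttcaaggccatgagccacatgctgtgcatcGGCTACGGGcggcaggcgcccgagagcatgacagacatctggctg
Hcn3 (chr3:89150970-89151059, minus strand): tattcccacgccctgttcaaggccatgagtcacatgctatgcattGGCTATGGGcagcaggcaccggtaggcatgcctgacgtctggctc
Hcn4 (chr9:58855546-58855635, plus strand): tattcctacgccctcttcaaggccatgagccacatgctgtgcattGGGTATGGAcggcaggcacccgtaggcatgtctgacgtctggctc
The stretches shared between 70 bases (*Hcn2* and *Hcn3*) and 81 bases (*Hcn3* and *Hcn4*) of 90. GC content of the stretch was 57.8% in *Hcn3* and *Hcn4* and 62.2% in *Hcn2*, and that of the whole coding sequence was 61.1%, 62.2% and 63.8% for *Hcn3*, *Hcn4* and *Hcn2*. Over the longest transcript GC content was 58.0% for *Hcn3* and 65.4% for *Hcn2*, against a median of 49.4% over all genes tested.

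Markers of choroid plexus and of striatum varied most between punches among the 12 marker lists. The SD of the score, the mean log2 CPM of a list with batch means removed, was 1.51 and 0.59 for these, against 0.29 for glutamatergic, 0.16 for GABAergic and 0.047 for pan-neuronal markers and 0.12 for thalamic markers. The 10 neuronal markers summed to 5920 to 6868 CPM (counts scaled to 1000000 per library) over all mice and the 6 central amygdala markers to 308 to 412 CPM. The 8 striatal markers ran from 406 to 1616 CPM and the 8 choroid plexus and ependymal markers from 18.0 to 4323 CPM. Water mice 42 and 43 of the first batch stood apart, with striatal scores 2.12 and 2.14 SD below the mean of all mice and striatal sums of 421 and 406 CPM, and the comparisons are also given without them. In these bulk punches, fewer cells of a type and less RNA per cell cannot be told apart. None of the 12 marker lists differed between drinking groups after adjustment over 36 exact permutation tests; the striatal score of Chronic mice was 0.45 lower than that of Acute mice on the log2 scale (exact permutation, two-sided, adjusted p = 0.473) and 0.28 lower than that of Water mice (adjusted p = 0.918), and Acute mice exceeded Water mice by 0.20 in the central amygdala score (adjusted p = 0.473).

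Levels were first compared between genes in the 10 Water mice, as TMM-normalized CPM per kilobase of merged exon (RPKM), given as mean ± SD. The lowest level was that of *Cacna1s*, the skeletal muscle L-type pore, with 0.114 ± 0.0393 RPKM. Most neighbours in the order of levels had overlapping ranges over mice. Among the exceptions were the steps from *Cacng3* to *Cacnb1*, *Cacna1d* to *Hcn4* and *Scn7a* to *Scn9a*, where the lowest Water mouse of the higher gene lay above the highest of the lower gene.

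Among the sodium channel alpha subunits, *Scn2a*, the main axonal subunit of excitatory neurons, had the highest level, 28.6 ± 2.41 RPKM, which was between 41.5% and 46.2% of the summed alpha subunit level in each Water mouse. *Scn8a*, the subunit of the axon initial segment and nodes, followed with 18.5 ± 1.57 RPKM. *Scn1a*, known from fast-spiking inhibitory neurons, had 7.10 ± 0.860 RPKM and *Scn3a*, best known from the embryonic brain, 5.14 ± 0.489 RPKM. The sodium-sensing *Scn7a* had 1.51 ± 0.266 RPKM, whereas the sensory neuron subunits *Scn9a*, *Scn10a* and *Scn11a* lay between 0.207 and 0.569 RPKM. Per length, the means of the beta subunits *Scn2b*, with 56.7 ± 5.18 RPKM, and *Scn3b*, with 31.3 ± 1.51 RPKM, exceeded those of every alpha subunit, while *Scn4b* ran from 0.886 to 40.9 RPKM over the Water mice.

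The calcium channel pores were led by *Cacna1e*, the R-type pore, with 15.6 ± 1.87 RPKM. Its range overlapped that of the N-type pore *Cacna1b* with 13.7 ± 1.27 RPKM, but per kilobase of the longest transcript *Cacna1e* had 26.4 RPKM and the ranges lay apart. The P/Q-type pore *Cacna1a* ran from 8.13 to 11.4 RPKM. Of the T-type pores *Cacna1g* was highest with 11.3 ± 1.14 RPKM, ahead of *Cacna1h* with 8.30 ± 0.906 RPKM. The L-type pores *Cacna1c* and *Cacna1d* had 4.55 ± 0.409 and 3.91 ± 0.240 RPKM with overlapping ranges. The leading auxiliary subunits exceeded every pore. *Cacnb3* had 58.9 ± 6.92 RPKM and *Cacnb1* 42.0 ± 2.99 RPKM among the beta subunits, and *Cacna2d1*, the receptor of gabapentin, had 19.8 ± 2.20 RPKM ahead of *Cacna2d2* with 10.9 ± 2.58 RPKM. Among the gamma subunits *Cacng7* and *Cacng3*, both AMPA receptor partners, had 52.4 ± 3.74 and 51.2 ± 3.49 RPKM with overlapping ranges. *Hcn2* made up 71.0% ± 3.93 of the HCN sum with 35.8 ± 8.07 RPKM, against 5.51 ± 1.01 RPKM for *Hcn3*. *Scn2a*, *Cacna1c*, *Cacna1e*, *Cacna1g*, *Cacna2d1*, *Cacnb3*, *Cacng7* and *Hcn2* led their types in Water mice and also in Acute and Chronic mice, as the plot of levels by type shows.

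**Figure D1:**
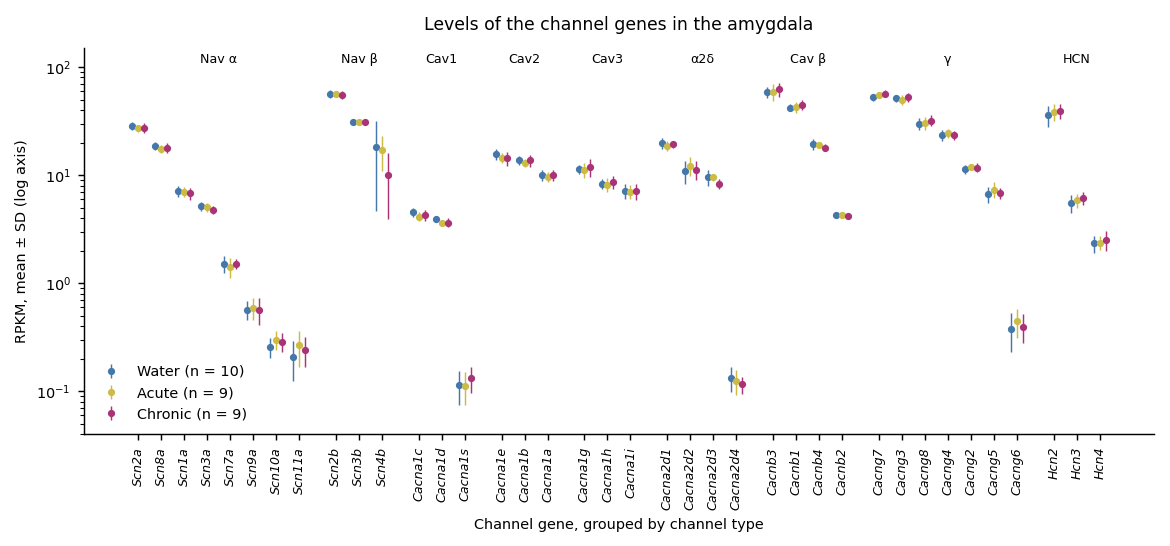
Level of 38 channel genes in RPKM (log axis, mean ± SD over mice), grouped by channel type, in Water (n = 10), Acute (n = 9) and Chronic (n = 9) mice. Levels run from 0.114 RPKM (*Cacna1s*) to 58.9 RPKM (*Cacnb3*) in Water mice, and *Scn4b* has by far the widest bars among the abundant genes.

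Whether a single drinking occasion changed the channel genes was asked by comparing Acute with Water mice, with a batch term in the quasi-likelihood fit of edgeR and Benjamini-Hochberg adjustment over the 16266 genes. No channel gene passed an adjusted p of 0.05, nor did any other gene (0% of genes tested). At an unadjusted p under 0.05 there were 4 of 41 channel genes (9.76%), near the 9.52% of all genes; 2 were higher and 2 lower, where 5.07% of all genes were higher and 4.45% lower. The estimates were higher in Acute mice for 19 genes and lower for 22, with a median log2 fold change of -0.0073 against 0.0011 for all genes tested.

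In the comparison of Chronic with Water mice, which uses the same Water mice as control, no channel gene passed adjustment, while 3 genes of all those tested did (0.0184%). At an unadjusted p under 0.05 there were 5 channel genes (12.2%), 3 higher and 2 lower, against 10.5% of all genes (4.81% higher and 5.65% lower), and the median log2 fold change was 0.0042 against 0.0022. Between Chronic and Acute mice no gene of any kind passed adjustment (0%), and 1 channel gene (2.44%), which was lower in Chronic mice, had an unadjusted p under 0.05 against 4.44% of all genes (2.5% lower). The 95% intervals of the log2 fold change lay within ± 0.5 for 37 of the 41 genes in Acute mice and for 35 in Chronic mice against Water, with a median half-width of 0.12 in each. In no comparison and in neither batch did the CPM ranges of 2 groups lie apart for a channel gene, where 4.09% (first batch) and 0.418% (second batch) of all genes did so for Acute against Water, 4.56% and 0.775% for Chronic against Water and 6.21% and 0.4% for Chronic against Acute.

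**Figure D2:**
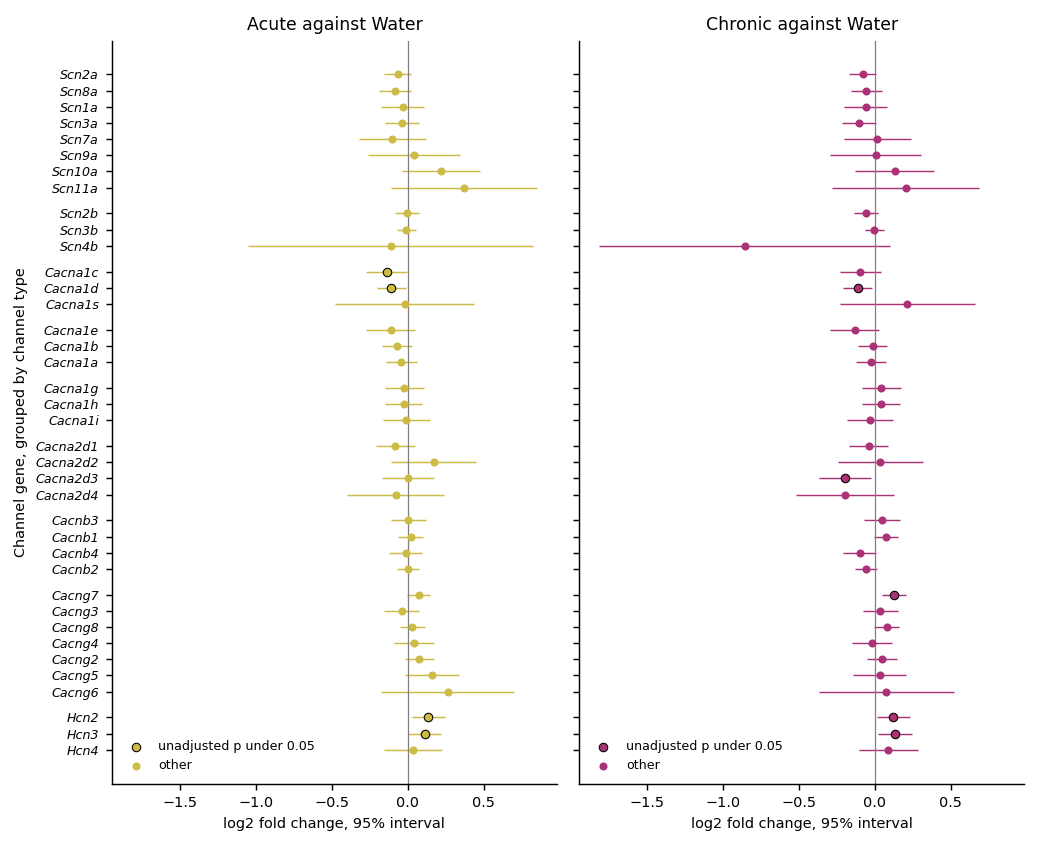
Log2 fold change of 38 channel genes with its 95% interval (edgeR, batch as covariate) in Acute (left) and Chronic (right) mice against the same 10 Water mice; outlined points had an unadjusted p under 0.05. Most intervals cover 0 closely, and those of *Scn4b* (-0.11 in Acute and -0.86 in Chronic mice) are the widest.

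Of the HCN channels, *Hcn2* had 73.3, 118 and 144 CPM (lowest, median and highest mouse) in Water, 96.5, 130 and 155 CPM in Acute and 95.5, 131 and 149 CPM in Chronic mice. The groups overlapped, and in each group the first batch lay below the second. The log2 fold change was 0.14 (SE 0.053, adjusted p = 0.462) in Acute and 0.12 (SE 0.052, adjusted p = 0.411) in Chronic mice, with 7 of 9 mice of either group above the Water mean of their batch. *Hcn3* had 16.9, 23.4 and 28.4 CPM in Water, 20.2, 24.3 and 31.3 CPM in Acute and 20.1, 26.3 and 28.9 CPM in Chronic mice. Its log2 fold change was 0.11 (SE 0.054, adjusted p = 0.514) in Acute mice, 6 of 9 above the Water mean, and 0.13 (SE 0.054, adjusted p = 0.368) in Chronic mice, 9 of 9 above it. The slow cardiac pacemaker subunit *Hcn4* had estimates of 0.036 and 0.088. Exons of *Hcn3* overlap *Pklr* on the opposite strand, and whether the counting used strand is not given in the sources used here.

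The Cav1 pores *Cacna1c* and *Cacna1d* had negative estimates in both comparisons with Water, while the sparse *Cacna1s* had -0.020 in Acute and 0.21 in Chronic mice (SE 0.22 in each). *Cacna1d* had 42.6, 49.2 and 53.5 CPM in Water, 38.7, 46.1 and 49.7 CPM in Acute and 37.8, 44.9 and 51.0 CPM in Chronic mice. The groups overlapped, but 9 of 9 Acute and 7 of 9 Chronic mice lay below the Water mean of their batch, with log2 fold changes of -0.11 in each (SE 0.047; adjusted p = 0.497 and 0.380). *Cacna1c*, the main brain L-type pore, had 85.3, 96.4 and 114 CPM in Water, 70.2, 90.4 and 95.1 CPM in Acute and 75.5, 90.7 and 105 CPM in Chronic mice. Its log2 fold change was -0.14 (SE 0.066, adjusted p = 0.513) in Acute mice, with 9 of 9 below the Water mean, and -0.096 in Chronic mice. Exons of *Cacna1d* overlap *Chdh* on the opposite strand. Those of *Cacnb1*, *Cacnb2*, *Cacnb4*, *Cacna1a*, *Cacna1h*, *Cacna1s*, *Cacna2d2*, *Cacng2* and *Scn9a* also overlap transcripts of the other strand. Those of *Cacng8* overlap another gene on the same strand.

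The Cav2 and Cav3 pores held no gene with an unadjusted p under 0.05 in any comparison. All 3 Cav2 estimates were negative in both comparisons with Water, between -0.11 and -0.041 for Acute and between -0.13 and -0.013 for Chronic mice. The leading *Cacna1e* had 337, 385 and 489 CPM in Water, 289, 368 and 429 CPM in Acute and 276, 352 and 415 CPM in Chronic mice, and its log2 fold changes were -0.11 and -0.13 (SE 0.079 in each). *Cacna1g* had 101, 115 and 130 CPM in Water, 87.5, 112 and 145 CPM in Acute and 85.3, 118 and 148 CPM in Chronic mice. Its estimates were -0.021 and 0.043, and the Cav3 genes together ranged from -0.032 to 0.043.

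Among the gamma subunits, *Cacng7* had the smallest p of all channel genes in Chronic mice. It had 115, 131 and 139 CPM in Water, 122, 133 and 148 CPM in Acute and 118, 138 and 153 CPM in Chronic mice. The difference from Water was 0.13 on the log2 scale (SE 0.038, adjusted p = 0.234) in Chronic mice, 8 of 9 above the Water mean, and 0.074 (SE 0.038, adjusted p = 0.541) in Acute mice. By batch, the difference of mean log2 CPM between Chronic and Water mice was 0.051 (first) and 0.16 (second). *Cacng5*, another AMPA receptor partner, had 18.1, 26.1 and 31.0 CPM in Water, 22.3, 28.2 and 37.4 CPM in Acute and 22.9, 26.1 and 33.1 CPM in Chronic mice, with log2 fold changes of 0.16 (SE 0.086, adjusted p = 0.564) and 0.032. Estimates were positive for 6 of 7 gamma subunits in each comparison with Water. With the offsets for GC content and length described later, *Cacng8* turned negative in Acute (-0.028) and in Chronic mice (-0.021). *Cacng3* did so in Chronic mice (-0.0052), and the other estimates kept their sign.

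*Cacna2d3*, an alpha2delta subunit, was the channel gene with the smallest p between Chronic and Acute mice. It had 57.7, 86.9 and 101 CPM in Water, 72.8, 83.6 and 90.7 CPM in Acute and 59.3, 72.6 and 83.9 CPM in Chronic mice. Chronic mice were lower by log2 values of -0.20 against Acute (SE 0.086, adjusted p = 0.998) and -0.20 against Water (SE 0.083, adjusted p = 0.391), with 8 of 9 below the batch mean of the other group in each. Acute and Water mice differed by 0.0023. *Cacna2d1* had 209, 234 and 297 CPM in Water, 187, 234 and 258 CPM in Acute and 206, 239 and 270 CPM in Chronic mice, with estimates of -0.082 and -0.041. Of the beta subunits, *Cacnb4*, mutated in the lethargic mouse, had 138, 182 and 189 CPM in Water, 164, 172 and 180 CPM in Acute and 138, 160 and 177 CPM in Chronic mice, with a log2 fold change of -0.10 (SE 0.053, adjusted p = 0.509) in Chronic mice. *Cacnb2* had 47.1, 58.6 and 60.2 CPM in Water, 51.7, 57.4 and 61.0 CPM in Acute and 52.3, 54.9 and 56.8 CPM in Chronic mice. *Cacnb3*, the most abundant, had 193, 238 and 285 CPM in Water, 159, 241 and 293 CPM in Acute and 186, 263 and 292 CPM in Chronic mice. For *Cacnb2* and *Cacnb3* the log2 differences from Water lay between -0.056 and 0.047.

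Apart from *Scn4b*, the abundant sodium channel genes differed little between groups. *Scn2a* had 322, 365 and 421 CPM in Water, 296, 350 and 376 CPM in Acute and 293, 346 and 405 CPM in Chronic mice, with log2 fold changes of -0.065 and -0.081. *Scn3a* had 55.3, 65.2 and 73.4 CPM in Water, 55.5, 63.0 and 74.0 CPM in Acute and 52.4, 60.0 and 66.3 CPM in Chronic mice, and its difference of -0.11 in Chronic mice had an adjusted p of 0.499. The intervals of *Scn2a* lay within ± 0.25 in both comparisons with Water. *Scn4b* had the largest estimate of all channel genes. It had 4.41, 101 and 204 CPM in Water, 21.3, 95.4 and 126 CPM in Acute and 20.9, 35.2 and 107 CPM in Chronic mice, and the log2 fold change in Chronic mice was -0.86 with an SE of 0.47 (adjusted p = 0.528). The lowest values of the series, 4.41 and 6.60 CPM, belonged to Water mice 43 and 42, so that the range of Water mice enclosed that of the drinking groups.

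**Figure D3:**
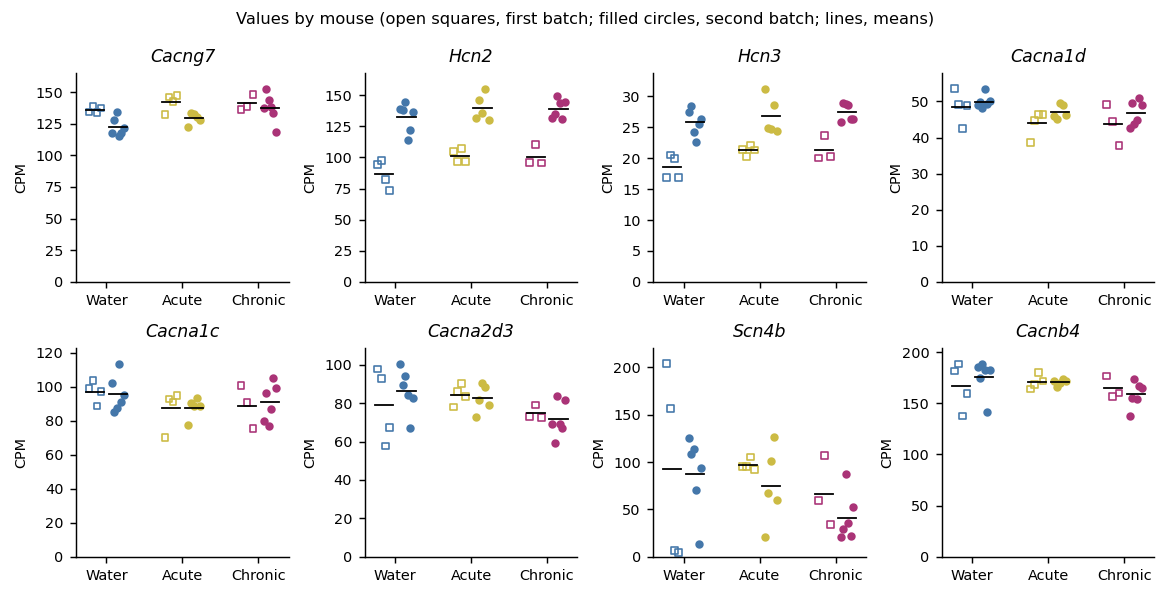
CPM of 8 channel genes in each mouse by drinking group; open squares are the first batch, filled circles the second and lines the batch means. *Hcn2* and *Hcn3* separate by batch, and *Scn4b* runs from 4.41 to 204 CPM among Water mice.

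How much each gene varied among mice of the same group and batch was then measured as the SD of log2 CPM with those means removed. The median over the channel genes was 0.14, as over all genes tested (0.14). *Scn4b*, which is abundant in striatal projection neurons, had an SD of 1.37, above 99.4% of all genes. *Scn11a* had 0.55, *Cacna1s* 0.46 and *Cacng6* 0.43, at means of only 29.0, 16.2 and 16.6 counts.

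These deviations were compared with those of 12 marker scores across the 28 mice, in 492 relations with permutation p values adjusted together. Of these, 85 had an adjusted p under 0.05 and they involved 27 of the 41 channel genes. Such relations were not computed over all genes, so the counts by score given here do not set channel genes apart from other genes. *Scn4b* followed the striatal score with Pearson's r = 0.97 (Spearman's rho = 0.98; permutation, adjusted p = 8.2e-04 and 7.03e-04), r of 0.99 and 0.96 within the first and second batch, and r = 0.96 without the 2 mice farthest from the median score. *Cacna2d3* did so with r = 0.94 (rho = 0.93; permutation, adjusted p = 8.2e-04 and 7.03e-04), r = 0.94 within each batch and r = 0.95 without those 2 mice. *Hcn2* had r = 0.79 (rho = 0.87; permutation, adjusted p = 0.0026 and 7.03e-04), 0.80 and 0.77 within the batches and 0.74 without those 2 mice. None of the channel genes is in the striatal list.

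**Figure D4:**
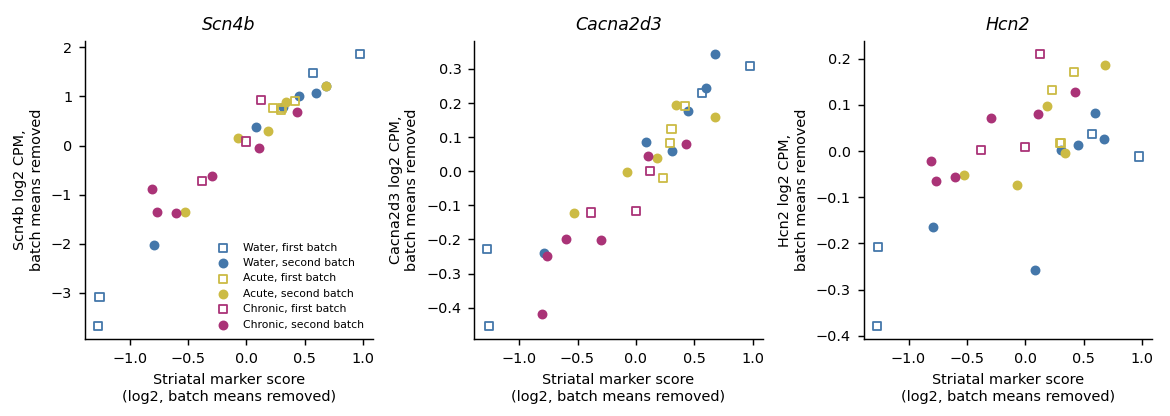
Log2 CPM of *Scn4b*, *Cacna2d3* and *Hcn2* (y axes) against the striatal marker score (x axis, mean log2 CPM of 8 markers), both with batch means removed, in 28 mice. *Scn4b* and *Cacna2d3* lie along a line in all groups and in both batches, with Water mice 42 and 43 at the low end.

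The oligodendrocyte score had the most relations, 11 positive and 3 negative, followed by the GABAergic (10 and 3), glutamatergic (5 and 5), striatal (8 and 1), oligodendrocyte precursor (8 and 1) and pan-neuronal scores (5 and 4). *Cacna2d2* was higher with the GABAergic score (r = 0.89, rho = 0.85; permutation, adjusted p = 8.2e-04 and 7.03e-04), with r of 0.94 and 0.85 within the batches and 0.86 without the 2 mice farthest from the median score. It was lower with the glutamatergic score (r = -0.81, rho = -0.76, with the same adjusted p; -0.81 within each batch and -0.76 without 2 mice). *Cacnb3* (r = 0.82) and *Cacng3* (r = 0.81) followed the 10 pan-neuronal markers, with rho of 0.82 and 0.78 (permutation, adjusted p of r 8.2e-04 and 0.0028, of rho 0.0015 and 0.0044). Within the first batch r was 0.91 for both, within the second it was 0.65 for *Cacnb3* and 0.54 for *Cacng3*, and without 2 mice it was 0.77 for both. *Cacng5* followed the oligodendrocyte score with r = 0.80 (rho = 0.85; permutation, adjusted p = 8.2e-04 and 7.03e-04; 0.80 and 0.84 within the batches and 0.82 without 2 mice). For *Cacng7*, *Cacna1c*, *Cacna1d* and *Hcn3* no relation had an adjusted p of r under 0.05.

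The differences between groups were therefore recomputed with regard to the striatal score. Without Water mice 42 and 43, the comparison of Chronic with Water mice gave 13 channel genes with an unadjusted p under 0.05 (31.7%, against 15.2% of all genes), 4 higher and 9 lower, and none passed adjustment. The higher ones were *Cacng7*, *Cacng8*, *Cacnb1* and *Hcn3*, and the lower ones *Cacna2d3*, *Scn4b*, *Cacnb4*, *Cacnb2*, *Scn3a*, *Cacna1d*, *Scn2b*, *Scn1a* and *Cacna1e*. *Cacna2d3* then had a log2 fold change of -0.29 (SE 0.067, adjusted p = 0.0551) and *Scn4b* of -1.19 (SE 0.33, adjusted p = 0.0982). Both mice left out are Water mice chosen for their low striatal score, which both genes follow. The larger differences and smaller p are therefore not independent of that choice. Of the genes that had an unadjusted p above 0.05 with all mice, *Cacnb4* moved from -0.10 to -0.15, *Cacnb2* from -0.056 to -0.094, *Scn3a* from -0.11 to -0.16, *Scn2b* from -0.057 to -0.083, *Scn1a* from -0.060 to -0.13 and *Cacna1e* from -0.13 to -0.17, and *Cacng8* from 0.078 to 0.11 and *Cacnb1* from 0.073 to 0.097 (adjusted p between 0.112 and 0.318 without the 2 mice). *Scn10a* in Acute against Water mice (0.22 with all mice, 0.27 without the 2, adjusted p = 0.415) and *Scn4b* in Chronic against Acute mice (-0.75 and -0.73, adjusted p = 0.992) also came to have an unadjusted p under 0.05. *Hcn2*, for which these 2 mice had the lowest Water values, then had only 0.077 (SE 0.047, adjusted p = 0.562) in Acute and 0.069 (SE 0.046, adjusted p = 0.506) in Chronic mice, and its unadjusted p was above 0.05 in both. The Acute estimate of *Hcn3* was 0.095 (SE 0.057, adjusted p = 0.559), also with an unadjusted p above 0.05. In Acute mice *Cacna2d3* then had -0.10 (SE 0.067, adjusted p = 0.608) and *Scn4b* -0.46 (SE 0.33, adjusted p = 0.632). The mean striatal score of the remaining 8 Water mice was 0.36, against 0.034 for all 10 and -0.24 for the Chronic mice. With the striatal score as a covariate over all 28 mice, the Chronic estimates were -0.098 (SE 0.032, adjusted p = 0.254) for *Cacna2d3* and 0.28 (SE 0.14, adjusted p = 0.499) for *Scn4b*, which turned in sign. Between Chronic and Acute mice *Cacna2d3* was at -0.063 (SE 0.034) in that fit and did not pass adjustment. With the covariate *Hcn2* had 0.17 (SE 0.034, adjusted p = 0.0728) in Chronic and 0.11 (SE 0.034, adjusted p = 0.317) in Acute mice. In the second batch alone 10 channel genes (24.4%, against 13.4% of all genes) had an unadjusted p under 0.05 in Chronic mice, 5 in each direction, and in the first batch alone *Hcn2* and *Hcn3* had one (4.88%, against 3.52% of all genes). The fits of each batch alone gave *Scn4b* -0.48 in the first and -1.09 in the second, whereas its difference of mean log2 CPM between Chronic and Water mice was 0.94 in the first, which holds Water mice 42 and 43, and negative in the second.

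Differences from Water also moved with the base composition and length of the transcripts. GC content was that of the longest transcript, and the 41 genes are not independent replicates. Log2 fold change had a Spearman's rho with it of 0.36 in Acute and 0.55 in Chronic mice, against 0.18 and 0.34 over all genes. Pearson's r was 0.28 and 0.26, against 0.13 and 0.24, so that in Chronic mice the channel genes were near all genes on this measure. Against exon length rho was -0.60 and -0.58, against -0.26 and -0.27, and r was -0.46 and -0.23, against -0.15 and -0.17. The channel genes are long, with a median of 7966 exonic bases against 4244 over all genes. With offsets that remove each library's trend on GC content and length, rho of the channel genes with GC content was 0.019 and 0.063 and with exon length -0.22 and -0.20, and the log2 fold change of *Hcn2* in Chronic mice was 0.029 (SE 0.051, adjusted p = 0.956) and that of *Cacng7* 0.070 (adjusted p = 0.743). No channel gene then had an unadjusted p under 0.05 in Acute mice (7.41% of all genes did), and *Cacna1d*, *Cacng7* and *Cacna2d3* had one in Chronic mice (7.32% against 6.63%). The part of GC content and length in the differences was not tested beyond these fits.

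**Figure D5:**
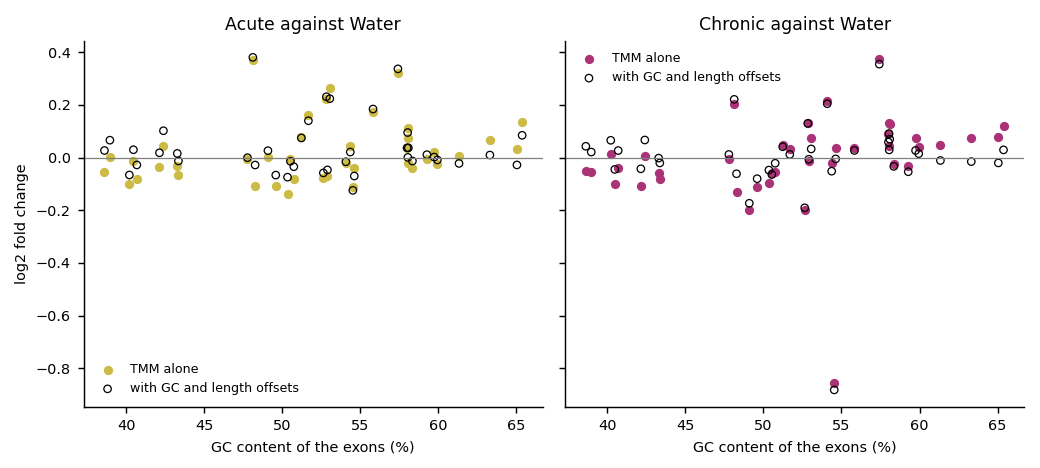
Log2 fold change of the 41 channel genes in Acute (left) and Chronic (right) mice against Water, by GC content of their longest transcript. The x axis is labelled as GC content of the exons. Filled points are from the fit without and open points from the fit with GC and length offsets. At the high end of GC content the filled points lie mostly above 0 and the open points closer to it, and *Scn4b* lies apart at -0.86 in Chronic mice.

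The batches differed far more than the drinking groups. Between the second and the first batch, 20 of the 41 channel genes passed an adjusted p of 0.05 (46.2% of all genes did), 19 higher and 1, *Cacng7*, lower in the second batch (22% and 24.3% of all genes), with a median log2 difference of 0.15 against -0.015 over all genes. *Hcn2* was 0.52 higher (SE 0.045, adjusted p = 1.6e-10), *Hcn3* 0.39 higher (SE 0.046, adjusted p = 4.99e-08) and the gamma subunit *Cacng8* 0.32 higher (SE 0.034, adjusted p = 7.68e-09). All 3 Cav3 pores passed, between 0.25 and 0.33, whereas none of the Cav1 pores or alpha2delta subunits did. Whether the drinking effects differed between the batches was tested with an interaction term: no channel gene had even an unadjusted p under 0.05 (4.82% of all genes did, and 0% passed adjustment), and DESeq2 gave 1 such gene, *Scn9a*.

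Of 33 partner genes of these channels, 32 were measured and none passed adjustment in any comparison between drinking groups. In Acute mice 4 of 32 (12.5%) had an unadjusted p under 0.05, all higher, against 9.52% of all genes (5.07% higher). In Chronic mice there were 3 (9.38%), 2 higher and 1 lower, against 10.5% of all genes. In Acute mice those with the smallest p were *Stac2* with a log2 fold change of 0.16 (SE 0.060, adjusted p = 0.462), *Stac* with 0.48 (SE 0.19, adjusted p = 0.468), both encoding adaptors that bind L-type channels, and the calcium-binding *Cabp1* with 0.10 (SE 0.047, adjusted p = 0.507). In Chronic mice the smallest p belonged to *Cabp1* with 0.14 (SE 0.047, adjusted p = 0.279), *Stac* with 0.54 (SE 0.19, adjusted p = 0.295) and *Fmr1*, the fragile X gene, with -0.078 (SE 0.035, adjusted p = 0.433). *Stac* was above the Water mean in 9 of 9 Acute and 8 of 9 Chronic mice. Between Chronic and Acute mice *Fgf14*, which binds sodium channels at the axon initial segment, had -0.090 (SE 0.042, adjusted p = 0.998), the ion channel regulator *Rem2* -0.23 and the HCN partner *Pex5l* 0.073.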

How the data were processed

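RNA of 28 mice was measured in 3 drinking groups and 2 batches. Per the labels' processing notes, the authors used FastQC 0.11.8 and Salmon 0.14.1 with GRCm38 (mm10), and they deposited estimated counts per gene as whole numbers, in 1 table per batch. The counting's use of strand is not given in the sources used here. The 49477 genes in both tables were joined and 16266 with a mean of at least 10 counts were tested. Genes were annotated with GENCODE M21. The members and lists were chosen with earlier results of these data known. Counts were normalized by TMM and tested in edgeR 4.0.16 (R 4.3.3; quasi-likelihood F-test over all mice, batch as covariate, two-sided, Benjamini-Hochberg adjustment). Log2 CPM used a prior count of 2. Direction counts compare each mouse with the mean of the other group in its batch. Marker scores are mean log2 CPM with batch means removed. They were compared by exact permutation within batches (smallest p 3.09e-05) and, with group means also removed, correlated with the channel genes by 100000 permutations within group and batch (smallest p 1e-05).

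Named by rule were the 2 highest genes of each type, genes with an unadjusted p under 0.05, the 6 with the smallest p in each comparison, and the 3 partners with the smallest p. *Scn7a*, *Scn9a*, *Scn10a*, *Scn11a*, *Cacna1a*, *Cacng4*, *Hcn4* and the genes of the correlations were named after their values were seen. Alternatives were DESeq2 1.42.0, ComBat-seq (sva 3.50.0), RLE normalization, other filters, each batch alone, a replicate block, GC and length offsets (splines of 5 df on genes with at least 50 counts), only the groups compared and each mouse left out. The fits without 2 Water mice, with the striatal score as a covariate, and the correlations with markers and GC content were chosen after seeing the data. *Opalin* and *Cnih2*, from the lists, were not in both tables. No 2 libraries of a group and batch agreed within sampling noise (chi-square per degree of freedom at least 3.75 over 55 pairs). The fits were tested on simulated data. Some members are counted but not reported here by name.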

Additional observations from a re-analysis of the deposited data

Results flagged for a closer look

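In 6 of 114 groups of mice (38 genes in 3 groups, batch means removed), the highest or lowest mouse lay apart by Dixon's criterion, whose ratio is the gap to the nearest mouse divided by the range; chance flags about 1 in 20 groups. *Scn4b* was lowest in Acute mouse 1 of the second batch, with 21.3 CPM (ratio 0.584). Water mouse 43 of the first batch was lowest for *Cacng4* with 60.8 CPM (0.530) and for *Cacnb2* with 47.1 CPM (0.510), and highest for *Scn3b* with 192 CPM (0.547). Water mouse 40 of the first batch was highest for *Cacna1h* with its batch mean removed, at 88.2 CPM (0.497). Acute mouse 33 of the first batch was lowest for *Cacna1d* with 38.7 CPM (0.514).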

How the results depend on the processing

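No channel gene passed adjustment between drinking groups in any of the 13 alternatives or the 28 fits without 1 mouse; the lowest adjusted p was 0.0551. The fold changes of the genes with an unadjusted p under 0.05 kept their direction but not their size: over the alternatives *Hcn2* in Chronic against Water mice ran from 0.029 to 0.21, and *Cacna2d3* from -0.29 to -0.076 in Chronic against Water and from -0.21 to -0.063 in Chronic against Acute mice. The number of genes with an unadjusted p under 0.05 also moved. For Acute against Water it was 4, and 2 in the first batch alone, 1 in the second, 0 with GC and length offsets, and 1 to 5 without 1 mouse (1 without Water mouse 40 or Water mouse 4). For Chronic against Water it was 5, and 2 in the first batch, 10 in the second, 3 with offsets, 13 without Water mice 42 and 43, and 3 to 10 without 1 mouse (10 without Chronic mouse 37, 9 without Water mouse 42, 8 without Water mouse 43 or 5, 3 without Water mouse 40). For Chronic against Acute it was 1 (2.44%, against 4.44% of all genes), 0 in the first batch (0% against 4.58%) and 3 in the second (7.32% against 3.99%). It was 3 with only the groups compared (7.32% against 4.57%), 2 without Water mice 42 and 43 (4.88% against 4.73%) and 0 with the striatal covariate (0% against 3.47%). Without 1 mouse it was 0 to 2. It was 0 without Acute mouse 3 (against 4.36%) or Chronic mouse 2 (against 3.23%), and 2 without Acute mouse 5 (4.88% against 4.93%). DESeq2 gave 1 gene (*Scn9a*) for the interaction of batch and drinking in place of 0. The causes were not tested.

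The second batch carries shared replicate numbers. Its 16 same-numbered pairs had correlations from -0.489 to 0.4 (median -0.0329), and 5 exceeded 0.1. These values show no evident pairing, but they cannot exclude one. What the numbers stand for is not given in the sources used here. With the replicate block, 1 gene had an unadjusted p under 0.05 for Acute against Water (2.44%, against 8.55% of all genes). For Chronic against Water there were 5 (12.2% against 10.3%) and for Chronic against Acute 1 (2.44% against 4.80%). With block and offsets the numbers were 0 (0% against 6.82%), 2 (4.88% against 6.58%) and 1 (2.44% against 4.32%).

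Per kilobase of the longest transcript in place of merged exons, the levels were 86.4 RPKM for *Cacnb3*, 57.8 for *Cacng7*, 40.8 for *Scn2a*, 33.1 for *Cacna2d1*, 26.4 for *Cacna1e*, 13.7 for *Cacna1g* and 7.32 for *Cacna1c*. Depth limits *Cacna1s*, *Cacng6*, *Cacna2d4* and *Scn11a*, with means of 16.2, 16.6, 24.5 and 29.0 counts, whose intervals were among the widest.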
